A study of Mus musculus with 20 samples.

Results

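Long noncoding RNA (lncRNA) genes that reach the abundance of ordinary protein-coding transcripts are few in mouse liver. Of 15209 autosomal lncRNA genes listed in the liver FPKM table, 167 had a mean of 1 FPKM or more over 20 livers, and these 167 are described here. FPKM, fragments per kilobase of exon scaled to the number of mapped reads, is a level that allows genes of different length and libraries of different depth to be set side by side. A further 2 lncRNAs of chromosome X or Y also reached the limit and were left out. The level chose the lncRNAs, so the levels are a description and carry no test. The whole table lists 36128 genes, 20570 of them protein-coding, and 8894 protein-coding genes reached the same limit.

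LncRNAs are transcribed by RNA polymerase II, spliced and often polyadenylated like messenger RNAs, but carry no long open reading frame. In liver most are nuclear and expressed at low levels, and many are restricted to hepatocytes. Liver expression of many genes, lncRNAs included, depends on sex through the pituitary pattern of growth hormone, which is pulsatile in males and near-continuous in females. LncRNAs are grouped by position relative to protein-coding genes: intergenic lncRNAs lie between them and antisense lncRNAs overlap one on the opposite strand.

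The study compared sex-biased liver lncRNAs between mouse strains of diverse genetic background. PolyA-selected liver RNA was sequenced from 5 males and 5 females of C57BL/6J (B6), a classical inbred strain, and from 5 males and 5 females of CAST/EiJ (CAST), a wild-derived strain. The labels give an age of 8 weeks and no transgene or treatment for all mice, and each library was 1 liver. For 10 libraries, the B6 females and CAST males, the strain field of the label and the title disagree, and the title was followed.

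Counts summed to between 7969482 and 35328573 per liver. The sex labels were checked on lnc15394, a lncRNA of chromosome X, which ranged from 24.9 to 38.3 FPKM over the 10 females and from 0.00705 to 0.0325 over the 10 males. The 4 Y-linked genes looked for are listed at 0 in all livers and check nothing. Of 36 cell type markers looked for, 35 were listed, and the 8 hepatocyte markers summed to at least 17314 FPKM in every liver. Hba-a1 and Hbb-b1 are listed at 0 in all livers, so the red-cell list rests on Alas2 alone. Some livers often lay nearest the other sex. B6 female 2 was the female nearest the males in 8 of the 10 lncRNAs called higher in B6 males and in 4 of the 8 called higher in B6 females. B6 male 1 was the male nearest the females in 7 and 5 of these, and CAST female 3 was the female nearest the males in 5 of 11 and 11 of 17 lncRNAs called higher in males and in females of CAST. CAST male 4 was the male nearest the females in 3 and 8 of these.

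The 167 lncRNAs comprised 75 intergenic, 42 antisense and 50 of a class called intra in the identifiers, which the sources used here do not define. The intra class made up 1.62% of autosomal lncRNA genes but 29.9% of these 167. The exon length implied by the ratio of counts to FPKM had a median of 804 nt for intra, 4574 nt for intergenic and 7735 nt for antisense lncRNAs. The counts behind a level therefore differ widely at equal FPKM. The median count per liver was under 20 for 27 lncRNAs and 100 or more for 85. None of 16 well-known noncoding RNAs looked for by symbol, such as Malat1 or Neat1, is listed under that symbol. Names follow the number in the identifier, as lnc9208, and no positions or sequences are given because the files hold only the chromosome.

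Levels were steeply graded. The mean lay from 1 to under 2 FPKM for 85 lncRNAs, from 2 to under 5 for 48, from 5 to under 10 for 17, from 10 to under 100 for 12 and at 100 or more for 5. The intergenic lnc9208 of chromosome 10 stood above all others at a mean of 2309 FPKM. Its 5 B6 males measured 2185, 1975, 2241, 2619 and 2855 FPKM, and its 5 CAST females 2004, 2236, 2098, 2058 and 2222. It alone made up 56.8 to 74.5% of the FPKM of the 167 lncRNAs, and they in turn held 81.9 to 88.1% of all lncRNA FPKM and 1.46 to 1.95% of all FPKM. By counts they held 0.614 to 0.878% of a library. lnc9208 passed none of the 4 tests of sex or strain, its largest log2 fold change being 0.17 ± 0.09 (SE) for males over females in CAST (edgeR adjusted p = 0.334).

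Next in level came lnc13909, an intergenic lncRNA of chromosome 17, at a mean of 140.8 FPKM, and the intra lncRNAs lnc13383 of chromosome 16 (131.8), lnc10883 (111.0) and lnc10888 (107.0), both of chromosome 12. The rest of the 10 most abundant were the intra lncRNAs lnc1052 of chromosome 2, lnc10851 of chromosome 12 and lnc7312 of chromosome 8, the antisense lnc6166 of chromosome 7 and the intergenic lnc12778 of chromosome 15, with means from 17.1 to 44.6 FPKM. lnc13909 was higher in males than in females of B6 by a log2 fold change of 0.70 ± 0.10 (adjusted p = 0.000282), below the 2-fold limit for a call. lnc13383 behaved alike in B6, with 0.58 ± 0.09 (adjusted p = 0.000395). In CAST the values were 0.28 ± 0.16 (adjusted p = 0.354) and 0.31 ± 0.12 (adjusted p = 0.168). lnc12778 was higher in CAST by 1.16 ± 0.19 in males, written as -1.16 for B6 minus CAST (adjusted p = 8.66e-06), at 32.8 ± 2.09 FPKM (SD, n = 5) in CAST males against 14.3 ± 5.00 in B6 males.

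**Figure D1:**
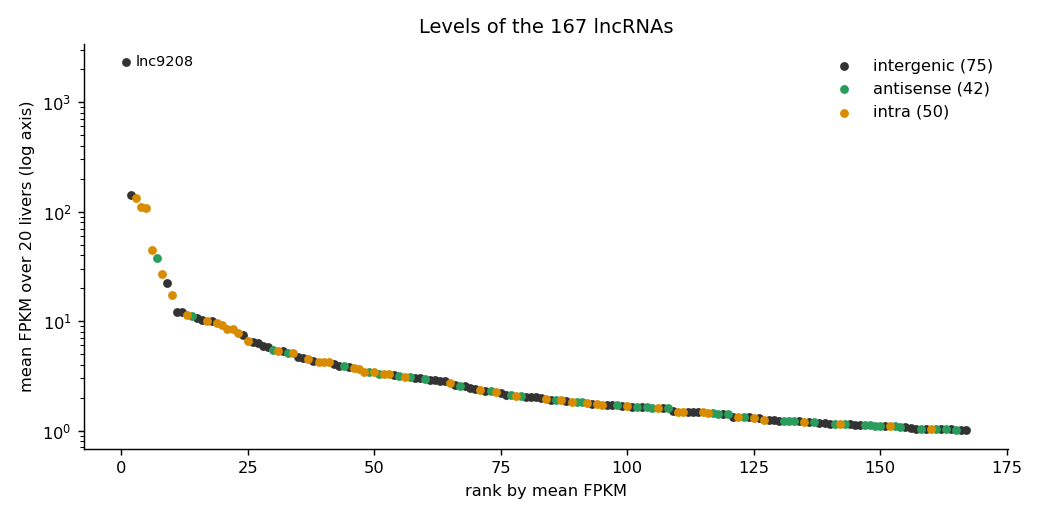
Mean FPKM over 20 livers (log axis) of the 167 lncRNAs, ranked from the highest, each point 1 lncRNA colored by class. lnc9208 lies at 2309, 4 more lie above 100, and 85 lie between 1 and 2.

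lnc10883 was the most variable of the abundant lncRNAs. In B6 males it measured 5.84, 47.3, 119, 27.9 and 112 FPKM, and in B6 females 11.4, 120, 7.14, 8.59 and 8.67. In CAST males it measured 247, 230, 43.9, 111 and 228 FPKM, and in CAST females 347, 228, 196, 94.8 and 23.4. Every group spans a wide range, and the high B6 female is replicate 2. With all livers the B6 sex difference was 0.97 ± 0.73 on the log2 scale (adjusted p = 0.484). Without B6 female 2 it was 2.81 ± 0.60 (adjusted p = 0.0057), with the B6 female mean at 8.94 FPKM. With all livers and the replicate number, not known to pair livers, as a block in edgeR, it was 1.39 and was called (adjusted p = 7.75e-16). Between strains it was higher in CAST females than in B6 females (B6 over CAST -2.59 ± 0.74, adjusted p = 0.0058), a call kept in all 20 fits that left out 1 liver; in males the difference was -1.44 ± 0.70 (adjusted p = 0.107) and was called only without B6 female 2.

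Across the 20 livers the coefficient of variation ranged from 7.47 to 191%, with a median of 58.6%. The steadiest lncRNAs were intergenic lnc9425 of chromosome 11, lnc1906 of chromosome 2, lnc9208 and lnc5325 of chromosome 6, and antisense lnc814 of chromosome 1, all with a coefficient of at most 13.4%. lnc9425 measured 2.36 ± 0.204 FPKM in males and 2.62 ± 0.191 in females of B6, and 2.72 ± 0.0727 and 2.67 ± 0.0398 in those of CAST. The most variable were lnc4732, lnc4735, lnc2915, lnc4736 and lnc5920, each high in females of 1 strain and described further on. All 4 group means were at 1 FPKM or more for 75 lncRNAs, 3 for 16, 2 for 67 and 1 for 9. Of the 9, 6 reached 1 FPKM in CAST females alone, lnc5920 among them, 2 (lnc2915 and lnc12684) in B6 females alone and 1 in CAST males alone. A lncRNA that passed the limit through 1 or 2 groups had to differ between groups. The counts of called lncRNAs below, and the p-values of such lncRNAs, are therefore descriptions of this selection.

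The identity of the intergenic lncRNAs of chromosome 1 is uncertain between strains. Over 882 such identifiers, the log2 mean count in B6 and that in CAST under the same identifier had a Pearson r of 0.066. When the CAST identifier was the one 2 places before the B6 identifier, r was 0.426 over 880 pairs. On the other 19 chromosomes the same-identifier r of intergenic lncRNAs ranged from 0.745 to 0.925, and on chromosome 1 it was 0.782 for antisense lncRNAs. As an example, lnc117 had 6602 counts in CAST and 13 in B6, while lnc119 had 6441 in B6 and 3 in CAST. The shift did not hold throughout: of the 13 chromosome 1 intergenic lncRNAs among the 167, the identifier 2 places away held 263 to 6602 reads in the other strain for 9, but 0 to 17 for lnc972, lnc458, lnc29 and lnc291. The exon lengths implied by counts and FPKM under the same identifier differed between strains by a median of 0.017 on the log2 scale, over 288 identifiers with counts in both. The correlations are across genes and are given as a description. Of the 13, 11 were under 1 FPKM in B6 and 2, lnc119 and lnc291, in CAST. Strain results are therefore given with and without the 13. Tests of sex are within a strain and do not rest on the match, but comparisons of sex calls between strains and the mean level over both strains do. Of the 13, 2 were called sex-biased, both in CAST and higher in females.

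In B6 liver, 18 of 161 lncRNAs tested were sex-biased, 10 higher in males and 8 higher in females. To be called, a lncRNA had to differ by more than 2-fold with an edgeR adjusted p under 0.05. Over all 25690 genes tested in B6, 2.4% were called, 1.16% higher in males and 1.24% higher in females. The other 6 of the 167 have no B6 counts listed. The 10 higher in males comprised 5 antisense and 5 intergenic lncRNAs and no intra lncRNA, and the 8 higher in females comprised 4 intra, 3 intergenic and 1 antisense. Without B6 female 2, lnc10850, lnc10883 and lnc13146 were also called higher in males, and without B6 male 1 lnc1057, lnc7314, lnc7319 and lnc7327 were also called. The median log2 fold change of the 161 was 0.060, against 0.020 for all genes tested.

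In CAST liver, 28 of 167 were sex-biased, 11 higher in males and 17 higher in females, against 2.05% of 24722 genes, 0.882% higher in males and 1.17% higher in females. Of the 17, 9 were intra lncRNAs. Of the 75 lncRNAs at 1 FPKM or more in all 4 groups, 2 were called in B6 and 3 in CAST, so most calls fell on lncRNAs that are low in at least 1 group. A tissue library cannot tell fewer cells of a type from less RNA per cell. In B6 the Kupffer cell list, 4 of 5 listed, summed to 11.7 to 23 FPKM in males and 28.2 to 33.1 in females, the stellate list, 5 of 5, to 7.25 to 9.56 and 11.9 to 15.4, the endothelial list, 5 of 5, to 14.9 to 18.3 and 19.3 to 24.7, the cholangiocyte list, 5 of 5, to 7.33 to 24.6 and 5.81 to 13.3, and Alas2 of the red-cell list to 26.9 to 36.5 and 2.83 to 5.42. Of the 33 markers tested, Alas2 and Sox9 were called, both higher in males, and in CAST 0 of 30 were called. Below the fold limit, other markers had an adjusted p under 0.05 in B6. Vsig4, Clec4f, Cd5l, Reln, Lrat, Colec11, Hand2, Stab2, Clec4g, Ptprc and Alb were higher in females, and Apoa1 was higher in males. In CAST these were Lrat, Reln, Alb and Cyp2e1, all higher in females. The part of the markers in the lncRNA differences was not tested.

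The 2 strains shared 11 sex-biased lncRNAs, 6 higher in males and 5 higher in females, all with the same sign in both. Over the 22605 genes tested in both strains, 0.854% were called in both, 0.389% higher in males and 0.442% higher in females in both. Of 24 lncRNAs called in 1 strain alone, 23 were tested in both and 18 had the same sign in the other strain, beside 104 of all 161 lncRNAs tested in both. Of these 23, lnc836, with the opposite sign, is a chromosome 1 intergenic identifier.

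lnc14873, an intergenic lncRNA of chromosome 19, had the largest male bias shared by the strains. B6 males measured 2.11, 3.63, 2.71, 2.21 and 3.84 FPKM and B6 females 0.068, 0.533, 0.0515, 0.062 and 0.0442. CAST males measured 4.05, 4.53, 2.66, 3.19 and 2.93 FPKM and CAST females 0.0867, 0.192, 0.41, 0.0685 and 0.104. Males and females did not overlap in either strain. The log2 fold change was 4.24 ± 0.50 in B6 (adjusted p = 2.08e-05) and 4.19 ± 0.35 in CAST (adjusted p = 1.35e-07). Without B6 female 2, which was the highest of the 5 B6 females, it was 5.71 ± 0.23 in B6. Between strains it was not called in either sex, with B6 over CAST log2 fold changes of -0.22 ± 0.41 in males and -0.29 ± 0.52 in females, but without B6 female 2 the difference in females was -1.75 (adjusted p = 0.00191) and was called.

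Of the 6 lncRNAs higher in males in both strains, 4 were antisense: lnc3297 of chromosome 4, lnc6162 and lnc5964 of chromosome 7 and lnc14332 of chromosome 18, the last named after its values were seen. lnc3297 measured 7.71, 8.34, 13.7, 12.5 and 11.4 FPKM in B6 males and 1.87, 4.33, 2.32, 1.06 and 1.29 in B6 females. In CAST it measured 0.743, 0.64, 0.679, 0.567 and 0.593 in males and 0.0592, 0.0812, 0.101, 0.0661 and 0.0927 in females. Sex and strain thus both separate its groups without overlap. The sex difference was 2.29 ± 0.28 in B6 (adjusted p = 3.28e-05) and 3.02 ± 0.20 in CAST (adjusted p = 4.82e-09), and B6 was higher than CAST by 4.03 ± 0.27 in males and 4.76 ± 0.33 in females. With limma on log2(FPKM + 1) the CAST sex difference of lnc3297 was 0.61, below the fold limit, and its interaction was 1.34 and was called (adjusted p = 0.0104). All 4 antisense lncRNAs were called higher in B6 in both sexes, by log2 fold changes of at least 3.11. For lnc6162 and lnc5964 the B6 sex differences were 1.24 ± 0.26 and 1.21 ± 0.23, and 1.65 ± 0.19 and 1.58 ± 0.16 without B6 female 2; the CAST call of lnc6162 was lost without CAST male 2 or 3. With limma on log2(FPKM + 0.1) the CAST sex differences of lnc6162 and lnc5964 were 0.97 and 0.84, below the fold limit, and on log2(FPKM + 1) both lost their calls in both strains. The B6 call of lnc14332 (1.06 ± 0.30, adjusted p = 0.0343) was lost without any 1 of 7 livers and was 1.6 ± 0.17 without B6 female 2. The strand setting of the counting is not given in the sources used here, so reads of an antisense lncRNA and of its sense partner may not be fully separated.

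lnc2942, an intergenic lncRNA of chromosome 3, was higher in males and, unlike those 4, higher in CAST. Its means were 6.01 ± 3.20 FPKM in males and 1.28 ± 0.797 in females of B6, and 24.8 ± 8.87 and 9.08 ± 4.24 in those of CAST. The lowest CAST male, at 13.4, lay below the highest CAST female, at 16. The sex difference was 2.23 ± 0.37 in B6 (adjusted p = 0.000777) and 1.36 ± 0.26 in CAST (adjusted p = 0.00246).

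A pair of intra lncRNAs of chromosome 7 was almost confined to females among these 20 livers. lnc6001 measured 3.95, 3.01, 3.78, 4.31 and 4.74 FPKM in B6 females and 2.48, 2.58, 2.29, 4.40 and 3.07 in CAST females. The 5 B6 males held no read, against 177 reads in the B6 females, and the CAST males 1 read, against 206. B6 females were thus at least 87.9-fold higher, the floor being 3 reads over the 5 males, and CAST females 147-fold higher with an exact 95% counting interval from 26.1 to 5833 (edgeR adjusted p = 2.23e-07 and 1.44e-07). lnc5920 was the more unequal between strains, with 7.47, 5.84, 3.99, 11.5 and 7.13 FPKM in CAST females and 0.192, 0.386, 1.02, 0.917 and 0 in B6 females. It was listed at 0 in all B6 males. Its B6 call rests on 48 reads over 5 females (at least 23.8-fold higher, adjusted p = 0.0051), against 1132 in CAST females and 1 in CAST males. Among females it was higher in CAST by a log2 fold change of 3.95 ± 0.42, written as -3.95 for B6 minus CAST (adjusted p = 2.84e-08).

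lnc12684, an intergenic lncRNA of chromosome 15, was higher in females of both strains but by unequal amounts. B6 females measured 4.75, 4.54, 4.80, 5.91 and 6.20 FPKM and CAST females 0.951, 0.655, 0.423, 0.664 and 0.916. B6 males ranged from 0.0971 to 0.373 and CAST males from 0.0607 to 0.332. No female overlapped a male of its strain. The log2 fold change, male over female, was -4.55 ± 0.25 in B6 (adjusted p = 7.33e-10) and -1.90 ± 0.28 in CAST (adjusted p = 0.000176), and these differed by -2.65 ± 0.42 (interaction adjusted p = 0.00037). The remaining lncRNAs higher in females of both strains were lnc15014, an intra lncRNA, and lnc14968, an antisense lncRNA, both of chromosome 19. Their B6 values were -1.68 ± 0.43 and -1.43 ± 0.24, and their CAST values -2.34 ± 0.45 and -2.16 ± 0.18. For lnc15014 the adjusted p in B6 was 0.0197, and the call was lost without B6 female 5 and with limma on log2(FPKM + 0.1) (adjusted p = 0.0528). With limma on log2(FPKM + 1), lnc14968 fell below the fold limit at -0.86 in B6 and -0.76 in CAST, and lnc12684 at -0.52 in CAST.

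**Figure D2:**
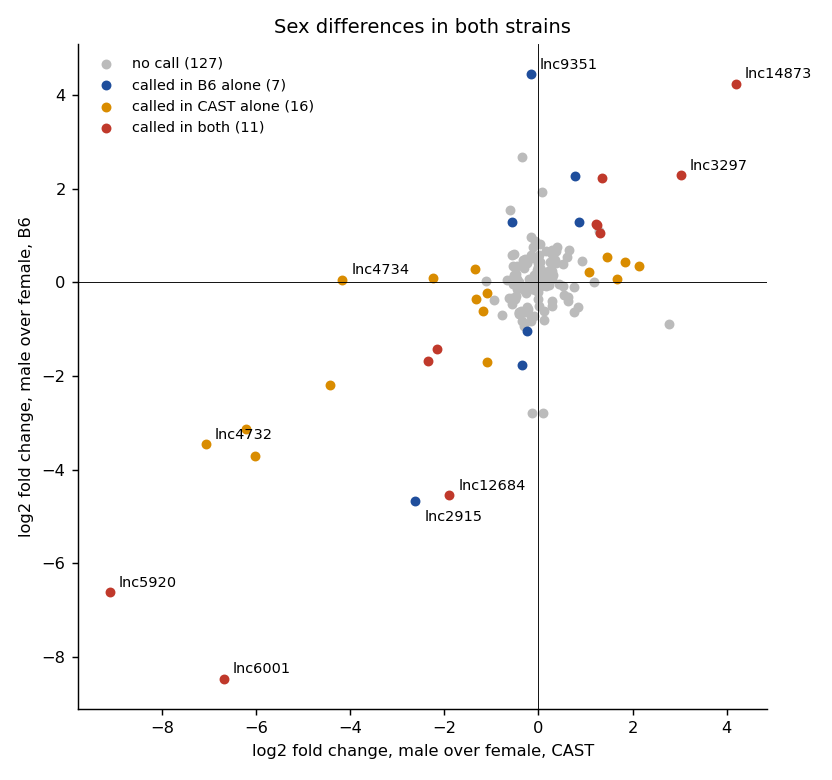
Log2 fold change of males over females in CAST (x axis) and in B6 (y axis) for the 161 lncRNAs tested in both strains, colored by call. The 11 called in both lie in the lower left and upper right quadrants; lnc9351 is displaced in B6 alone and lnc4734 in CAST alone. Values beyond about 6 rest on groups with few or no reads.

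A sex bias can be absent in 1 strain because it differs or because the test missed it, and the interaction term, which tests the difference between the 2 sex differences, addresses this. Of the 166 lncRNAs in the fit of all 4 groups, 9 had an interaction adjusted p under 0.05, against 2.28% of 25779 genes. In 5 the male minus female difference was larger in B6 (1.44% of all genes) and in 4 it was larger in CAST (0.838%). Of the 24 lncRNAs called in 1 strain alone, 6 were among the 9. For the other 18 this edgeR fit did not show a difference between strains, although DESeq2 or limma called an interaction for some, such as lnc8460 and lnc2915. In B6 6 lncRNAs were called with no adjusted p under 0.05 in CAST (1.5% of all genes tested in B6), and 16 in CAST with none in B6 (1.11% of those tested in CAST).

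lnc9351, an intergenic lncRNA of chromosome 10, gave the smallest interaction p. B6 males measured 1.58, 0.659, 1.39, 1.29 and 0.894 FPKM, and B6 females 0.0388, 0.0279, 0.0589, 0.0649 and 0.0784. CAST males measured 2.0, 2.08, 1.13, 1.40 and 1.93 FPKM, and CAST females 1.48, 2.16, 1.84, 1.83 and 1.73. It was low in B6 females alone, and the CAST sexes overlapped. The sex difference was 4.44 ± 0.28 in B6 (adjusted p = 5.24e-09) and -0.16 ± 0.15 in CAST (adjusted p = 0.604), with an interaction of 4.62 ± 0.35 (adjusted p = 1.02e-09). Between strains it differed by -5.15 ± 0.28 in females and by -0.53 ± 0.19 in males.

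lnc13938, an intergenic lncRNA of chromosome 17, was higher in B6 males than in B6 females at a level far below that of CAST. Its means were 0.323 ± 0.102 FPKM in males and 0.135 ± 0.0356 in females of B6, and 3.21 ± 1.38 and 4.49 ± 0.722 in those of CAST. The B6 difference was 1.28 on the log2 scale (adjusted p = 0.00096), and the interaction was 1.86 ± 0.35 (adjusted p = 0.00289). With limma the B6 difference was 0.82 on log2(FPKM + 0.1) and 0.22 on log2(FPKM + 1), below the fold limit, and the interaction was 0.66 on the latter scale and not called (adjusted p = 0.175). lnc4329 of chromosome 5 was also called in B6 alone (2.28 ± 0.61, adjusted p = 0.0271), at levels of 0.136 ± 0.0979 and 0.0276 ± 0.0316 FPKM, and was not called without any 1 of 6 livers.

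Among those higher in B6 females, intergenic lnc2915 of chromosome 3 was nearly absent from CAST. B6 females measured 16.1, 8.18, 22.3, 21 and 14.8 FPKM, and B6 males 0.703, 0.399, 0.485, 0.756 and 0.746. In CAST 5 males were listed at 0 and the females held 4 reads in all. The B6 sex difference was -4.67 ± 0.24 (adjusted p = 2.57e-10), and with so few CAST reads a sex difference there was not detectable. lnc7323, an intra lncRNA of chromosome 8, measured 24.7, 19.3, 30.9, 34.4 and 29.4 FPKM in B6 females and 10.5, 6.07, 7.89, 7.58 and 7.86 in B6 males. CAST females measured 4.43, 4.47, 3.90, 2.96 and 12.7 FPKM and CAST males 3.89, 4.85, 5.70, 3.50 and 3.63, so a single CAST female, replicate 5, stood above the others. The interaction was -1.43 ± 0.35 (adjusted p = 0.0264), and -1.81 ± 0.26 without CAST female 5 (adjusted p = 0.000161). It was not called when any 1 of 6 other livers was left out. lnc14947 of chromosome 19 was near the fold limit (-1.04 ± 0.24, adjusted p = 0.0111), and its call was lost without any 1 of 3 livers.

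Called in CAST alone and higher in males were intergenic lnc13177 of chromosome 16, intra lnc10865 of chromosome 12 and antisense lnc8460 of chromosome 10. lnc13177 was sex-biased at a CAST level of 0.0371 ± 0.00571 FPKM in males and 0.00786 ± 0.00557 in females, while B6 males and females stood at 3.77 ± 0.823 and 3.02 ± 0.731. Its sex difference in CAST was 2.13 ± 0.41 (adjusted p = 0.00259), with an interaction of -1.75 ± 0.41 (adjusted p = 0.0179). At this CAST level the FPKM scale mattered: with limma the interaction was -0.03 on log2(FPKM + 0.1) and turned to 0.21 on log2(FPKM + 1), neither called, and the CAST sex differences were 0.35 and 0.04, below the fold limit. lnc8460 measured 5.57, 3.20, 9.07, 5.57 and 3.81 FPKM in CAST males and 2.25, 1.20, 1.34, 1.48 and 1.90 in CAST females, without overlap, a difference of 1.67 ± 0.22 (adjusted p = 5.15e-05). In B6 it stayed at or below 0.160 FPKM in all 10 livers. Its interaction was not called by the main edgeR fit. It was called by DESeq2 (-1.64, adjusted p = 0.00976), by limma and by edgeR with the replicate number as a block (-1.49, adjusted p = 0.0464). lnc10865 had few reads, a median of 6.5 per liver, and its call (1.84 ± 0.49, adjusted p = 0.0292) was lost without any 1 of 5 livers.

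**Figure D3:**
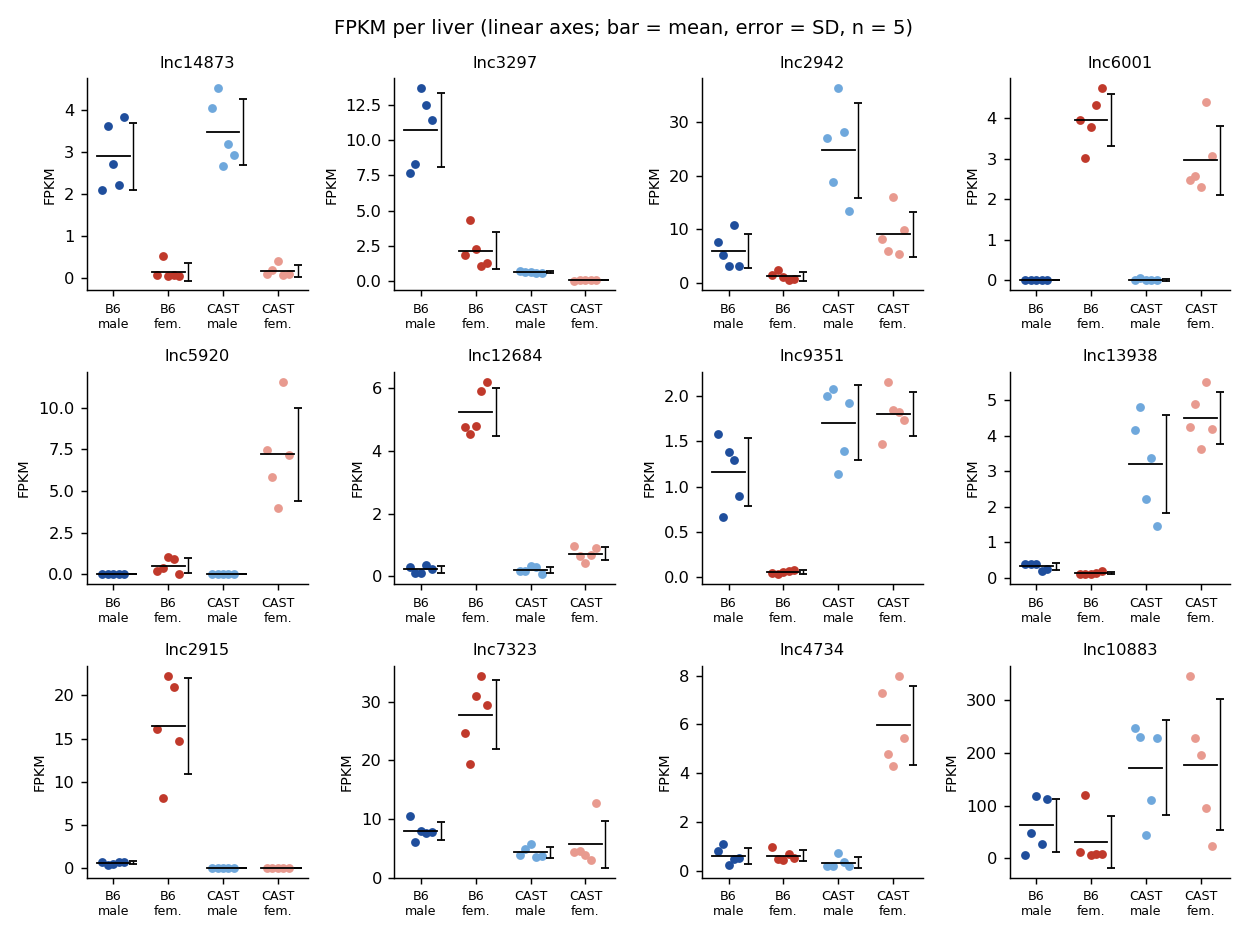
FPKM per liver (linear axes) of 12 lncRNAs in the 4 groups of livers, named under each panel, with points for the 5 livers in replicate order from left to right, a bar for the mean and an error bar for the SD. lnc6001 is at or near 0 in all 10 males, lnc9351 is low in B6 females alone, and lnc10883 overlaps between all groups.

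The interaction also held 2 lncRNAs of a run of 6 intra lncRNAs of chromosome 5, numbered from lnc4732 to lnc4739; this run and those that follow were chosen after their values were seen. All 6 were called higher in females in CAST (1.17% of all genes), and edgeR called none in B6 (1.24%). All but lnc4738 reached 1 FPKM in CAST females alone, so the level limit required a difference and their p-values describe this selection. The B6 reads were few: lnc4736 held 10 in females and 1 in males, with a log2 fold change of -3.14 (adjusted p = 0.0633), and lnc4735 6 and 0 (adjusted p = 0.081). With limma on log2(FPKM + 0.1) these were called higher in B6 females too, at -1.44 and -1.42 (adjusted p = 0.0243 and 0.0385), and edgeR called lnc4736 without B6 male 4 (adjusted p = 0.0463). lnc4735 measured 24.6, 13.2, 12.1, 19.6 and 17.8 FPKM in CAST females and at most 0.428 in the other 15 livers. lnc4736 and lnc4732 followed the same pattern, with CAST female means of 16.4 ± 4.96 and 6.66 ± 3.28 FPKM. lnc4739 had a CAST female mean of 20.3 and means of 0.983 in CAST males and under 0.1 in both B6 groups.

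lnc4738 and lnc4734 of this run were also expressed outside CAST females. lnc4738 measured 26.5, 16.4, 14.6, 23.2 and 15.5 FPKM in CAST females and 1.75, 2.93, 8.08, 2.50 and 1.59 in CAST males, whereas B6 males and females stood at 7.99 ± 2.52 and 7.69 ± 2.80. It was the only one of the 167 called with opposite signs in the 2 sexes between strains: B6 minus CAST was 1.17 ± 0.32 in males (adjusted p = 0.0046) and -1.18 ± 0.30 in females (adjusted p = 0.00196). lnc4734 measured 7.31, 4.79, 4.30, 8.00 and 5.43 FPKM in CAST females and at most 1.1 elsewhere. Its sex difference was -4.17 ± 0.29 in CAST (adjusted p = 1.26e-08) and 0.06 ± 0.31 in B6 (adjusted p = 0.936), with an interaction of 4.25 ± 0.48 (adjusted p = 2.25e-06). The other 4 of the run held 0 to 1 read over the B6 males each, and edgeR called no interaction for them. On log2(FPKM + 0.1), limma called it for lnc4732, lnc4735 and lnc4736, at 4.40, 4.70 and 4.35 (adjusted p = 0.000752, 0.000331 and 0.00129). Nearby identifiers with nearly the same pattern may share reads or a transcript, and the files give no positions to examine this. For lnc4738 and lnc4734 the ratio of counts to FPKM also varied over livers, by 1.33-fold and 1.24-fold.

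The smallest interaction p values further held intergenic lnc13576 of chromosome 17, which changed in opposite directions by less than 2-fold. Males exceeded females in B6 by 0.59 ± 0.13 (adjusted p = 0.00655), and females exceeded males in CAST, at -0.56 ± 0.10 (adjusted p = 0.00205). B6 males measured 9.09, 7.72, 7.27, 5.90 and 6.35 FPKM and B6 females 4.12, 5.83, 5.35, 4.86 and 4.37. CAST males measured 2.60, 2.76, 2.68, 2.97 and 2.45 FPKM and CAST females 4.18, 3.49, 3.52, 4.11 and 3.53. The sexes did not overlap in either strain. The interaction was 1.16 ± 0.17 (adjusted p = 0.000146).

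Strain differences were far more frequent than sex differences. In males 81 of 166 lncRNAs were called between strains, 35 higher in B6 and 46 higher in CAST, against 23.8% of 25779 genes, 13.4% higher in B6 and 10.4% higher in CAST. In females 87 of 166 were called, 35 higher in B6 and 52 higher in CAST, against 24.4% of all genes, 13.9% higher in B6 and 10.4% higher in CAST. Without the 13 chromosome 1 intergenic lncRNAs, 69 of 154 were called in males, 33 higher in B6 and 36 higher in CAST, and 75 of 154 in females, 33 and 42. The 2 sexes together gave 69 lncRNAs called with the same sign in both, 28 higher in B6 and 41 higher in CAST; 18.3% of all genes were called in both sexes, 10.1% higher in B6 and 8.13% higher in CAST. Without chromosome 1 intergenic lncRNAs these were 57, 26 and 31. Intergenic lncRNAs were called most, 48 of 74 in each sex, antisense lncRNAs 14 of 42 in each sex, and intra lncRNAs 19 of 50 in males and 25 of 50 in females; 12 of the intergenic calls in each sex were the chromosome 1 identifiers. The median log2 fold change of the members was -0.053 in males and -0.065 in females, against 0.069 and 0.002 for all genes.

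The Kupffer list summed to 4.17 to 11.2 FPKM in CAST males and 6.70 to 22.7 in CAST females, below the B6 livers of the same sex, and the lymphocyte list, 5 of 5, to 0.253 to 0.702 in CAST males and 0.316 to 0.768 in CAST females, against 0.655 to 1.13 and 1.06 to 2.67 in B6. Alas2 stood at 1.78 to 3.25 FPKM in CAST males and 1.09 to 2.03 in CAST females, below B6 livers of the same sex. The stellate list summed to 8.76 to 11.7 FPKM in CAST males and 10.2 to 15.8 in CAST females, overlapping B6 livers of the same sex. Of 32 markers tested, 11 were called higher in B6 in each sex and 0 higher in CAST. Below the fold limit, Apob, Hand2 and Hnf4a in males and Lyve1 and Tat in females were higher in CAST at an adjusted p under 0.05. Apoa1, Clec4g, Cyp2e1, Des, Ptprc, Spp1 and Ttr in males and Clec4g, Sox9 and Ttr in females were likewise higher in B6. The part of these markers in the lncRNA differences was not tested. Reads of the 2 strains were mapped to different genomes, so the strain and the genome used for mapping cannot be told apart.

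Of the 5 lncRNAs in each direction with the largest strain difference, ranked by the smaller of the log2 fold changes in the 2 sexes, 4 were not chromosome 1 intergenic lncRNAs. Intergenic lnc5595 of chromosome 6 measured 4.63, 4.21, 5.19, 4.35 and 5.30 FPKM in B6 males and 3.77, 7.51, 4.55, 4.46 and 3.38 in B6 females, and at most 0.0352 in any CAST liver. It was higher in B6 by 9.27 ± 0.38 in males and 8.23 ± 0.33 in females on the log2 scale (adjusted p = 7.04e-18 and 3.62e-18). Antisense lnc3298 of chromosome 4, numbered next to lnc3297, was at 4.0 ± 0.503 and 2.54 ± 0.509 FPKM in B6 males and females and at 0.0241 ± 0.0123 and 0.0157 ± 0.00444 in CAST, a difference of 7.50 ± 0.22 and 7.12 ± 0.21. lnc2915, described above, completed those higher in B6: its B6 males held 109 reads and its CAST males none, at least 27.3-fold fewer. In the opposite direction intergenic lnc8173 of chromosome 9 measured 1.44, 1.52, 1.78, 1.84 and 1.52 FPKM in CAST males and 2.51, 1.66, 2.35, 2.85 and 2.59 in CAST females. It was listed at 0 in all 10 B6 livers and is not listed in the B6 counts, so CAST was at least 65.1-fold higher in males and 66.4-fold higher in females. Differences of like size outside that ranking, named after their values were seen, were those of intergenic lnc9212 of chromosome 10 and lnc12167 of chromosome 14, both higher in CAST. lnc9212 held 1041 reads in CAST females and 3 in B6 females, a 222-fold ratio (exact 95% counting interval 75.8 to 1079), and lnc12167 held 256 reads in CAST males and 2 in B6 males, a 170-fold ratio (46.6 to 1412). lnc13177 was higher in B6 by 6.66 ± 0.23 in males and 8.42 ± 0.27 in females.

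The other 6 of those 10 were chromosome 1 intergenic lncRNAs, whose identity between strains is uncertain. lnc119 had 3889 reads in B6 males and 2 in CAST males, and lnc291 stood at 2.02 ± 0.613 FPKM in B6 males and 0.0107 ± 0.0117 in CAST males. lnc29, lnc972, lnc276 and lnc761 were listed at 0 in all B6 livers and had CAST male means of 5.21, 5.98, 5.80 and 3.73 FPKM. Within CAST, lnc972 was higher in females, at 14, 14.9, 9.51, 11.3 and 11.9 FPKM against 6.14, 6.87, 3.06, 9.29 and 4.54 in males (-1.13 ± 0.20, adjusted p = 0.00133), a call lost without CAST male 3.

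**Figure D4:**
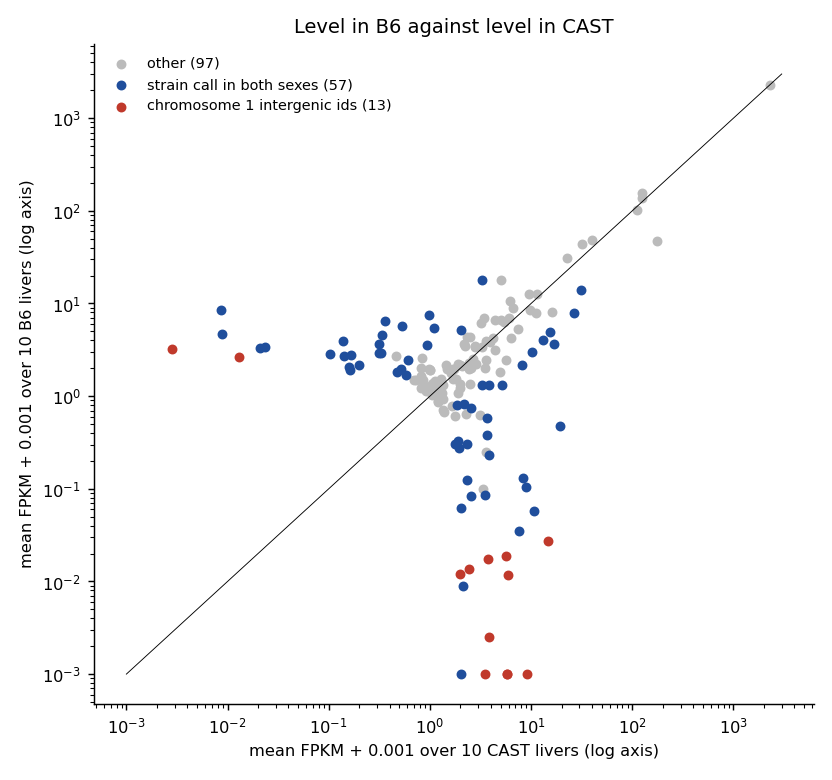
Mean FPKM + 0.001 over the 10 CAST livers (x axis) and the 10 B6 livers (y axis), log axes, for the 167 lncRNAs; the line marks equal levels. The 13 chromosome 1 intergenic identifiers lie at the edges with the 57 others called in both sexes spread on both sides of the line.

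Further runs of intra lncRNAs were on chromosomes 8 and 12. The 11 of chromosome 8, lnc7308 to lnc7327, had implied lengths of 343 to 1412 nt. The first 3, lnc7308, lnc7310 and lnc7312, were higher in CAST in both sexes; lnc7312 measured 25.3, 24.9, 16.6, 17.8 and 22.9 FPKM in CAST males and 10, 7.63, 6.11, 1.41 and 8.64 in B6 males (-1.61 ± 0.26, adjusted p = 1.02e-05). The last 2, lnc7323 and lnc7327, were higher in B6 females than in CAST females. lnc7327 measured 3.57, 2.74, 3.21, 4.02 and 4.87 FPKM in B6 females, while 4 of the 5 CAST females were listed at 0 and the fifth stood at 0.0839. The B6 females held 84 reads and the CAST females 1, a 131-fold ratio with an exact 95% counting interval from 22.9 to 5242 (edgeR adjusted p = 7.5e-09). None of the 11 was called between the sexes in CAST (2.05% of all genes), and lnc7323 alone was in B6 (2.4%). Without B6 male 1, lnc7314, lnc7319 and lnc7327 were called in B6 too. The 13 of chromosome 12, lnc10851 to lnc10888, held lnc10883, lnc10888 and lnc10851 of the 10 most abundant. Between strains 1 of the 13 was higher in B6 and 4 were higher in CAST in males, against 13.4% and 10.4% of all genes. In females 2 and 3 were, against 13.9% and 10.4%.

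**Figure D5:**
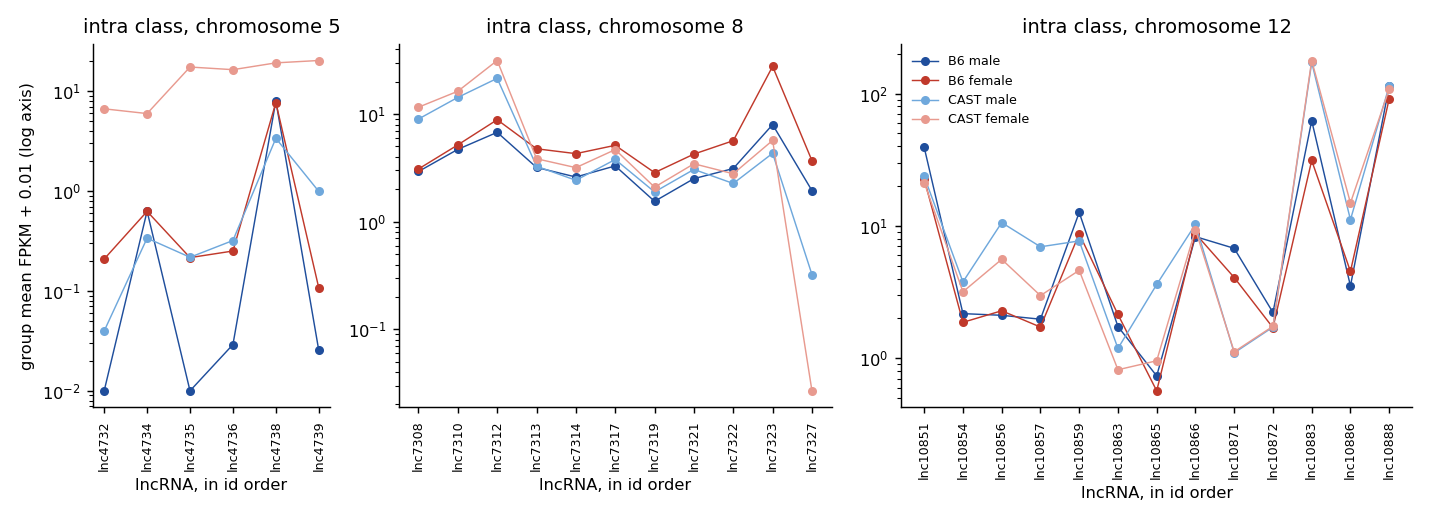
Group mean FPKM + 0.01 (log axis) of 6, 11 and 13 intra lncRNAs of chromosomes 5, 8 and 12, in identifier order with identifiers outside the 167 left out, a line for each of the 4 groups. The CAST female line lies from 5.97 to 20.3 on chromosome 5, where every lncRNA but lnc4738 stays under 1 in the other 3 groups.

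Beside the rest of the table, 11.2% of the lncRNAs tested in B6 and 16.8% in CAST were sex-biased, against 2.11% and 1.71% of autosomal lncRNA genes under 1 FPKM and 2.32% and 2.14% of protein-coding genes at 1 FPKM or more. For strain in males the shares were 48.8%, 23.5% and 19.4%, and in females 52.4%, 23.5% and 19.7%. The shares among the 75 lncRNAs at 1 FPKM or more in all groups were 2.67% and 4.0% for sex and 22.7% and 26.7% for strain. The power of the tests differs with counts, and the limit favors lncRNAs that are high in some groups, so the shares are given without a test.

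At the limit itself, the 3 lncRNAs just inside were antisense lnc5911 of chromosome 7 at 1.013 FPKM, intergenic lnc646 of chromosome 1 at 1.006 and lnc8173 at 1.003. Just outside were lnc7260, lnc13896 and lnc7696, at 0.997, 0.989 and 0.982 FPKM. For 15 lncRNAs the ratio of counts to FPKM, scaled to depth, varied by over 1.1-fold between livers, which leaves their level less certain. They were lnc10872 with the widest spread at 1.49-fold, lnc10850, lnc4738, lnc4734, lnc10857, lnc10854, lnc2915, lnc3295, lnc11523, lnc10856, lnc10865, lnc10863, lnc3294, lnc7310 and lnc10866. Of these, 6 carry a sex call in 1 strain, lnc10850, lnc10857 and lnc10865 being higher in males of CAST, lnc4734 and lnc4738 higher in females of CAST and lnc2915 higher in females of B6. The call of lnc10850 was lost without CAST male 4, and without B6 female 2 it was also called in B6 (1.11 ± 0.19, adjusted p = 0.000849). The call of lnc10857 was lost without any 1 of 3 livers.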

How the data were processed

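The 20 libraries were grouped by strain and sex from their titles, with 5 livers in each of 4 groups. The raw read counts that the authors deposited, in a table for each strain, were used together with a deposited table of FPKM in all 20 livers. The authors mapped 50 nt paired-end reads with TopHat2, using mm9 for B6 and a copy of mm9 carrying CAST variants for CAST, and counted uniquely mapped reads on exons with featureCounts; the strand setting is not given in the sources used here. Columns of the authors' own comparisons (fold changes, p-values) and 24 columns of scaled counts or group medians were not used. The lncRNAs, the marker lists and the named lncRNAs were chosen with earlier results of these data known.

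Sex was tested in each strain and strain and interaction in 1 fit of the 4 groups with edgeR 4.0.16 in R 4.3.3 (TMM, quasi-likelihood test, at least 1 read, Benjamini-Hochberg over all genes tested). The fit of 4 groups held 25779 genes listed for both strains, or listed for 1 with FPKM 0 in every liver of the other; 2028 genes were left out, lnc106 among them. The sign of a log2 fold change is positive where males exceed females or B6 exceeds CAST, and ± is the SE, or the SD for FPKM. Bounds against groups without reads use a floor of 3 reads over the group and, as the exact 95% intervals, cover counting error only. Alternatives were DESeq2 1.42.0, limma 3.58.1 on log2(FPKM + 0.1) and log2(FPKM + 1), other scalings and filters, a replicate block and omission of each liver; the fits were tested on simulated data. Each library is 1 mouse, so p-values rest on the spread between mice. In the fit of 4 groups that spread is 1 estimate per gene shared by all groups, and edgeR moderates it across genes.

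Named were the 10 highest levels; of shared sex calls 5 a direction, of calls in 1 strain without an adjusted p under 0.05 in the other 3 a direction and strain, and of strain calls in both sexes 5 a direction, by size; the 5 smallest interaction p-values; the 5 lowest and 5 highest coefficients of variation; 3 lncRNAs on each side of the level limit; and those whose counts and FPKM were not in 1 ratio.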

Additional observations from a re-analysis of the deposited data

Results flagged for a closer look

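Of 244 sets of 5 livers of named lncRNAs, 23 had 1 liver far from the other 4, where its gap to the nearest exceeded 0.71 of the range. Normally distributed values would give about 1 in 20 sets, but that rate does not apply here. A set with 1 liver above 0 passes by construction, a set at 0 in all livers cannot pass, and some lncRNAs were named for their variation. The causes were not tested. B6 female 2 accounted for 7, all as the highest B6 female: lnc10883 at 120 FPKM (next 11.4), lnc14873 at 0.533 (0.0680), lnc5964 at 2.43 (1.07), lnc6162 at 3.37 (1.62), lnc10850 at 4.36 (1.74), lnc5595 at 7.51 (4.55) and lnc4329 at 0.0833 (0.0225). CAST male 3 was the highest CAST male for lnc4738 at 8.08 (2.93), lnc10854 at 5.19 (3.63), lnc4732 at 0.149 and lnc5920 at 0.038, the last 2 with 0 in the other 4. CAST male 5 was the lowest for lnc9208 at 2101 (2557) and lnc6166 at 24.9 (30.8) and the highest for lnc10888 at 145 (109). CAST female 5 was the highest for lnc7323 at 12.7 (4.47) and the lowest for lnc646 at 1.45 (2.18).

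The remaining high livers were B6 male 2 for lnc10888 at 195 FPKM (next 101), CAST female 3 for lnc10865 at 2.50 (0.855), CAST male 2 for lnc5595 at 0.0161 (0.00353) and, with 0 in the other 4 livers, CAST male 2 for lnc6001 at 0.0483, B6 male 4 for lnc4736 at 0.0953 and CAST female 1 for lnc119 at 0.00247. B6 male 1 was the lowest B6 male for lnc6162 at 2.25 (4.24).

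The sex difference itself differed between strains for 9 lncRNAs by the interaction test, given as B6 minus CAST of the male over female log2 fold changes. It was 4.62 for lnc9351, 4.25 for lnc4734, 2.35 for lnc4738, 1.86 for lnc13938 and 1.16 for lnc13576, and -2.65 for lnc12684, -1.75 for lnc13177, -1.43 for lnc7323 and -1.36 for lnc3295.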

How the results depend on the processing

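The main counts were 18 and 28 sex-biased lncRNAs in B6 and CAST, 11 in both, 81 and 87 strain-biased in males and females, and 9 with an interaction. Leaving out 1 liver at a time gave 15 to 22, 24 to 31, 9 to 12, 80 to 83, 85 to 90 and 8 to 11. Without a fold limit, 35 of 161 and 43 of 167 lncRNAs were sex-biased in B6 and CAST, against 1939 of 25690 and 1396 of 24722 genes. The other alternatives are given without the share over all genes. limma on log2(FPKM + 1) called 9, 14 and 3 as sex-biased in B6, in CAST and in both. With the limit at 2 FPKM the counts in the order of the main ones were 6, 10, 2, 39, 42 and 5, and with 1 FPKM required in every group 2, 3, 1, 17, 20 and 4, both with fewer lncRNAs counted. Interactions numbered 16 by DESeq2, 17 by limma on log2(FPKM + 0.1), 23 with a minimum mean of 0.1 FPKM and 24 on log2(FPKM + 1); the cause was not tested. On that last scale the interaction of lnc3297 turned from -0.73 to 1.34 and that of lnc13177 from -1.75 to 0.21. On log2(FPKM + 0.1), the named lncRNAs that lost a sex call were lnc4329, lnc13938 and lnc15014 in B6 and lnc5964, lnc6162, lnc10850, lnc10865 and lnc13177 in CAST; on log2(FPKM + 1), lnc5920, lnc5964, lnc6162, lnc14947 and lnc14968 in B6 and lnc972, lnc3297, lnc12684 and lnc14968 in CAST lost theirs as well. On both scales lnc972, lnc2915, lnc4732, lnc4735, lnc4736, lnc5920 and lnc8460 gained an interaction. Males and females with the same replicate number correlated at a mean of 0.061 in B6 and 0.125 in CAST. A low mean cannot show that the numbers do not pair the livers. The paper describes processing in batches that held livers of each strain and sex. Whether the replicate numbers follow these batches was not tested. A replicate block gave 21 and 29 sex-biased lncRNAs in B6 and CAST and 11 interactions, and with a stricter filter on low counts, chosen after seeing the data, 16, 27 and 11. Of the log2 fold changes of named lncRNAs under the alternatives, 7211 kept their sign and their side of the threshold, 274 that were called under neither setting changed sign, 80 lost a call, 44 gained one and 2, given above, reversed with a call under 1 of the 2 settings. Lengths under 1000 nt and median counts under 20 limit what could be seen, with 41 and 27 lncRNAs. All other totals stayed within 1.5 times the main ones, but some counts in 1 direction did not. With limma on log2(FPKM + 0.1), 5 lncRNAs (7 with the minimum mean) were higher in CAST males against 11, and 3 were higher in males of both strains against 6. With the stricter filter on low counts, with or without the block, 3 were higher in females of both strains against 5. Without a fold limit, 53 were higher in B6 than in CAST males against 35.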
